A study of Homo sapiens with 2 samples.

Results

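The genes described here are 41 neighbours on the long arm of human chromosome 22, in band 22q12 around NF2 and EWSR1. They were chosen by their position and with earlier results of these data in view, so the ratios below describe them and test nothing. All 41 symbols were found in the deposited table, in 37 of its 62573 rows, because 9 of the symbols stand in 5 rows shared with overlapping genes. In GENCODE 44 on GRCh38 the outermost members, HSCB and YWHAH, span chr22:28742039-31957603, a stretch of 3.22 Mb. RNA was measured in SK-N-AS (AS), a human neuroblastoma cell line without MYCN amplification, in a single library from the parental line (AS WT) and another from a line in which STRAP, the serine-threonine kinase receptor-associated protein gene, had been targeted with a CRISPR-Cas9 plasmid (AS STRAP KO). Neither culture was treated. The methods describe knockout clones raised from single cells sorted for GFP and do not say which clone, or how many, gave the sequenced RNA, so the edit and the choice of clones cannot be told apart. The values are FPKM, read numbers scaled to transcript length and to the size of the library, and with 1 library per genotype no difference has a replicate check.

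A stretch of chromosome such as 22q12 is not a pathway. Its genes were brought together by position, and they encode proteins with a range of roles. NF2 encodes merlin, a tumor suppressor that links membrane receptors to the actin cytoskeleton and restrains YAP. EWSR1 encodes an RNA-binding protein that is fused to ETS factors in Ewing sarcoma. XBP1 encodes a transcription factor of the unfolded protein response. The members are therefore taken by role below, and then by their order on the map.

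A few promoters are printed because they show how close and how unlike the members are in sequence. They are RefSeq windows of GRCh38.p14, from 250 bases before to 50 bases after a start site, 5′ to 3′ on the strand of the gene. EWSR1 lies head to head with RHBDD3, and the capitals in its window, chr22:29268018-29268317 on the plus strand, mark the 214 bases that also belong to the window of RHBDD3. In the other windows, chr22:29603383-29603682 (plus strand, NF2), chr22:29766958-29767257 (minus strand, ZMAT5) and chr22:29882924-29883223 (plus strand, MTMR3), capitals mark each GC box, GGGCGG or its reverse complement CCGCCC. These 4 genes had log2 ratios of -0.75 (EWSR1), -0.56 (NF2), -1.20 (ZMAT5) and 0.01 (MTMR3).
EWSR1: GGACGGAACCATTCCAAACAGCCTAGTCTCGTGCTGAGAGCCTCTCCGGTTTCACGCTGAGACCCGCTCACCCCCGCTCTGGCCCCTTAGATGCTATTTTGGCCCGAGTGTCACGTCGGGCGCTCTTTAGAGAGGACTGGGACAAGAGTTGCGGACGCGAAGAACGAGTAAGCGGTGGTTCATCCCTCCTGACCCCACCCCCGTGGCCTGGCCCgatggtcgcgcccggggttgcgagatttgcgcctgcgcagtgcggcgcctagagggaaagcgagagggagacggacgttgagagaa
NF2: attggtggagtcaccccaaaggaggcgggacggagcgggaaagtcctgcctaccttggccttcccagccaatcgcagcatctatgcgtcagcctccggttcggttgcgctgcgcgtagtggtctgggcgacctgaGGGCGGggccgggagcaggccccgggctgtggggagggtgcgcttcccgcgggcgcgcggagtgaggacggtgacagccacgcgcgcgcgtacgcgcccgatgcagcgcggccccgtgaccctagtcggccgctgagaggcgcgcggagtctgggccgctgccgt
ZMAT5: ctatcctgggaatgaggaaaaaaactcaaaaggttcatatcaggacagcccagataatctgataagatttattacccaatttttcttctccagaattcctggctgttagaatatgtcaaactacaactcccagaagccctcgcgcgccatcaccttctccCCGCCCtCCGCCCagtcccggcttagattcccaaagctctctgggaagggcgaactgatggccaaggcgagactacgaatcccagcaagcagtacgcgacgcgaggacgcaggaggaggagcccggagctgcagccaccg
MTMR3: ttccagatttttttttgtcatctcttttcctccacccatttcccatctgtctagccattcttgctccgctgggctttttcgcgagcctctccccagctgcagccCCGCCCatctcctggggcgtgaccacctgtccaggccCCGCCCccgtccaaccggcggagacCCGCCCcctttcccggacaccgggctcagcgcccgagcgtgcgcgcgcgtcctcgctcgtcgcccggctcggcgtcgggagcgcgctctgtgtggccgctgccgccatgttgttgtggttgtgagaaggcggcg

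The table of promoters held a full window for 33 of the 41 genes. A GC box stood in 24 of these 33 (72.7%) and in 44.95% of all 35116 windows, and the median G and C content was 64.0% against 58.7%. CCAAT, or ATTGG on the other strand, stood in 10 of the 33 (30.3%, against 34.6% of all windows) and TATAAA or its reverse complement TTTATA in 2 (6.06%, against 11.5%). The GC box was present in 21 of 28 windows of genes with a lower FPKM in AS STRAP KO and in 2 of 3 of genes with a higher one. The 33 windows are 1 per gene, while the 35116 were not reduced to 1 per gene or limited to expressed genes. The shares therefore do not compare like with like, and these matches describe letters only. The printed windows have no GC box in EWSR1, 1 in NF2, 2 in ZMAT5 and 3 in MTMR3.

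The targeted gene STRAP, on another chromosome, had 244 FPKM in AS WT against 179 in AS STRAP KO. These values are of RNA, and by immunoblot the paper detected no STRAP protein in its AS knockout line. A gene counted as expressed at 1 FPKM or more in at least 1 library, which held for 13527 rows. Of the adrenergic neuroblastoma markers, 6 of 8 reached 1 FPKM in AS WT and 5 in AS STRAP KO, with summed levels of 457 and 368 FPKM, while TH was listed at 0 in both libraries. All 5 mesenchymal markers reached it in both, with sums of 1746 and 1520 FPKM that are mostly VIM (1368 and 896 FPKM), while the other 4 were higher in AS STRAP KO. The leukocyte markers PTPRC and CD3E were listed at 0 in both libraries, and the myeloid marker CD14 was at 1.16 and 1.18 FPKM. Of the epithelial markers only KRT18 reached 1 FPKM, at 283 and 268 FPKM, and CDH1 was listed at 0. A 0 in this table is not read as absence, because YWHAE, which nearly all cells express, was also listed at 0. The part of these markers in the results below was not tested.

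Most of the listed genes had a moderately lower level in AS STRAP KO. Of the 41 genes, 39 were expressed, in 35 rows, and counts below are of rows. The median of log2(AS STRAP KO FPKM / AS WT FPKM) over these rows was -0.61, so that the middle gene had 65.6% of its AS WT level, while the median over all expressed rows was 0.00. A lower value in AS STRAP KO was found in 30 of 35 rows, against 49.9% of all expressed rows. A value at least 1.5-fold lower was found in 18 of 35, against 19.2% of all, and one at least 2-fold lower in 4 of 35, which is 11.4% and close to the 10.6% of all. Because the members were picked from this contrast, nothing is read from these shares. The quartiles of the listed ratios were -0.80 and -0.44, against -0.42 and 0.40 for all expressed rows above 0 in both libraries. Summed over the 35 rows, the level was 2103 FPKM in AS WT against 1223 in AS STRAP KO. In bulk RNA, fewer cells that express a gene and less RNA per cell cannot be told apart.

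**Figure D1:**
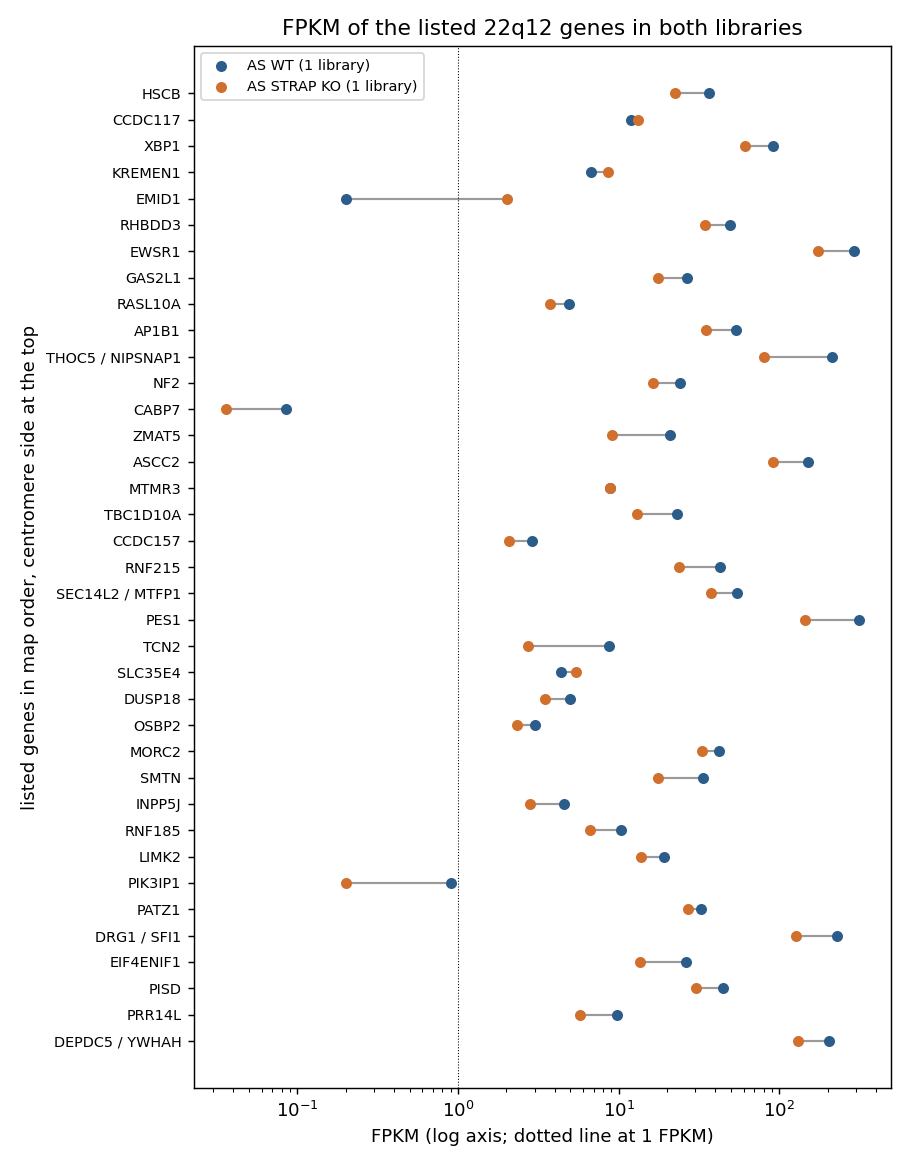
FPKM (log axis) of the 37 rows that hold the listed genes, in map order with the centromere side at the top, in AS WT (blue) and AS STRAP KO (orange), 1 library each. AS STRAP KO lies to the left of AS WT in 30 of the 35 expressed rows, and EMID1 is the widest gap in the other direction.

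The role groups below were formed after the values were seen, from members chosen with their ratios known, so their counts are descriptions only. Over all expressed rows 49.9% were lower and 19.2% at least 1.5-fold lower. Genes of RNA and the nucleus were lower in all 6 rows, with a median log2 ratio of -0.76. EWSR1 (chr22:29268009-29300525, plus strand) had 293 FPKM in AS WT against 175 in AS STRAP KO. THOC5, a subunit of the THO complex that couples transcription to mRNA export, shares a row with the mitochondrial protein gene NIPSNAP1, at 213 and 79.9 FPKM. The 2 genes cannot be separated, so this log2 ratio of -1.41 belongs to their sum. ZMAT5, a protein of the minor spliceosome, had 20.8 and 9.08 FPKM, a log2 ratio of -1.20. MORC2, a chromatin ATPase that works with the HUSH silencing complex, had 42.0 and 32.9 FPKM, and the zinc finger gene PATZ1 32.5 and 26.9 FPKM. PATZ1 had the smallest difference of the group, a log2 ratio of -0.27. PRR14L had 9.82 FPKM in AS WT against 5.75 in AS STRAP KO.

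All 4 rows of genes of the ribosome and translation were at least 1.5-fold lower (19.2% of all expressed rows), with a median log2 ratio of -0.89. PES1, which is needed to make the large ribosomal subunit, was the most abundant listed gene in AS WT, at 313 FPKM, and had 145 FPKM in AS STRAP KO. DRG1, a GTPase that binds ribosomes, shares a row with the centrosomal gene SFI1, at 228 and 128 FPKM. ASCC2, which takes part in the rescue of collided ribosomes, had 150 and 91.8 FPKM. EIF4ENIF1, which binds the cap-binding factor eIF4E, had 26.3 and 13.6 FPKM.

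The 4 genes of the endoplasmic reticulum and protein breakdown lay close together, with log2 ratios from -0.84 to -0.52. XBP1 had 91.7 FPKM in AS WT against 61.3 in AS STRAP KO. RNF185, a ubiquitin ligase of the endoplasmic reticulum, had 10.3 and 6.61 FPKM. The RING finger gene RNF215 had 42.7 and 23.9 FPKM, and the rhomboid-like gene RHBDD3 49.4 and 34.4 FPKM. The 4 mitochondrial rows were also all lower, with a median of -0.63, and a row shared by genes of different groups counts in each. HSCB, a co-chaperone of iron-sulfur cluster assembly, had 36.3 and 22.4 FPKM. PISD, which makes phosphatidylethanolamine in mitochondria, had 44.4 and 30.5 FPKM. MTFP1, a gene of mitochondrial fission, shares a row with the lipid-binding protein gene SEC14L2, at 54.9 and 37.4 FPKM.

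Genes of signaling and the cytoskeleton were lower in all 8 expressed rows, with a median log2 ratio of -0.59. NF2 (chr22:29603556-29698598, plus strand) had 24.0 FPKM in AS WT against 16.3 in AS STRAP KO, which is a log2 ratio of -0.56 that is near the median of all the listed rows. LIMK2, a kinase that inactivates the actin-severing protein cofilin, had 19.3 and 13.8 FPKM. SMTN, smoothelin, an actin-binding protein, had 33.5 and 17.5 FPKM. GAS2L1, which links actin to microtubules, had 26.6 and 17.5 FPKM. DEPDC5, of the GATOR1 complex that restrains mTORC1, shares a row with YWHAH, the 14-3-3 protein eta, at 203 and 131 FPKM. The RAS-like gene RASL10A had 4.94 and 3.72 FPKM, and the phosphatase gene DUSP18 4.96 and 3.50 FPKM.

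Genes of membrane lipids, transport and the cell surface had the widest range of log2 ratios, from -1.67 to 3.34. In this group 6 of 10 rows were lower, and the median was -0.46. Of the 2 little known genes, CCDC117 and CCDC157, 1 was lower. TCN2, transcobalamin, which carries vitamin B12, had 8.68 FPKM in AS WT against 2.73 in AS STRAP KO, the lowest ratio of the expressed listed rows (-1.67). AP1B1, a subunit of the AP-1 clathrin adaptor, had 54.1 and 35.1 FPKM. TBC1D10A, a GTPase-activating protein for Rab proteins, shares a row with CASTOR1 at 23.1 and 13.1 FPKM. INPP5J, an inositol phosphatase, had 4.55 and 2.80 FPKM, and the oxysterol-binding protein gene OSBP2 3.001 and 2.34 FPKM.

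The exceptions were the 5 rows with a value that was not lower. EMID1, a secreted protein with an EMI domain, had 0.201 FPKM in AS WT against 2.04 in AS STRAP KO. It is the 1 row of 35 at least 2-fold higher (8.31% of all expressed rows) and also the 1 at least 1.5-fold higher (17.6% of all). EMID1 reached 1 FPKM in AS STRAP KO only, so it could only be higher, and nothing is read from these shares. KREMEN1, a receptor for the WNT inhibitors of the DKK family, had 6.78 and 8.63 FPKM. SLC35E4, an orphan solute carrier, had 4.40 and 5.46 FPKM, and CCDC117 11.9 and 13.2 FPKM. MTMR3, a phosphatase of phosphoinositides, had 8.79 and 8.83 FPKM, a log2 ratio of 0.01. All 5 were under 15 FPKM in both libraries (the highest value was 13.2 FPKM), and lower-expressed members also lay on the lower side, such as CCDC157 at 2.89 and 2.07 FPKM. Under 1 FPKM in both libraries were PIK3IP1, an inhibitor of PI3-kinase, at 0.903 and 0.202 FPKM, and CABP7, a calcium-binding protein, at 0.0850 and 0.0358 FPKM.

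The depth behind these values was estimated from genes with 1 transcript, at 26.3 reads in AS WT and 26.7 reads in AS STRAP KO per kilobase for a gene at 1 FPKM. By this estimate and the length of its canonical transcript, EMID1 rests on 10.2 and 105 reads, PIK3IP1 on 52.65 and 12.001 reads and CABP7 on 6.998 and 2.999 reads. An exact binomial (Clopper-Pearson) 95% interval from these estimated reads covers counting error only. It lay wholly below 0 for 30 of the 35 expressed rows, wholly above 0 for 4, and held 0 for MTMR3. The half-width of the interval was 0.10 on the log2 scale for the middle row and 1.02 for EMID1, the widest. For a shared row the length of its first member along the map was used. A shorter transcript would give fewer reads and a wider interval. By its shortest transcript CCDC117 would rest on 82.3 and 93.3 reads, against 1174 and 1331 by its canonical one. The split of rows was not recomputed for other lengths.

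The median ratio of the listed rows was lower at higher levels, but that of all expressed rows also differed by level and was lowest at 50 FPKM or more. All 9 listed rows at 50 FPKM or more in the higher library were lower in AS STRAP KO, against 59.8% of the 2976 expressed rows of that level. Their median log2 ratio was -0.71, against -0.11 over those 2976 rows. For the 15 rows from 10 to below 50 FPKM the median was -0.61, against 0.08 over 5005 rows. For the 11 rows from 1 to below 10 FPKM it was -0.41, against 0.00 over 5546 rows. Of these 11 rows 7 were lower, against 50.2% of the 5546. Across the 35 listed rows Pearson's r of the log2 ratio with the log2 of the AS WT level was -0.63 (Spearman's rho -0.48), and -0.41 without EMID1 (rho -0.43). The AS WT level is also the denominator of the ratio. With position along the interval r was -0.25 (rho -0.20), and -0.17 without EMID1 (rho -0.14). With the log2 of transcript length r was 0.07 (rho 0.29), and 0.33 without EMID1 (rho 0.36). These are descriptions across genes of the same 2 libraries. In 3 consecutive parts of the map the medians were -0.57 (HSCB to NF2, 12 rows), -0.63 (ZMAT5 to OSBP2, 12 rows) and -0.64 (MORC2 to DEPDC5, 11 rows). All 11 rows of the last part were lower.

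The list does not hold every expressed gene of the interval, and the 11 unlisted rows show more spread. Their median log2 ratio was -0.89, and 8 of 11 were lower, against 49.9% of all expressed rows. NEFH, PLA2G3, GAL3ST1 and RPEP4 reached 1 FPKM in AS WT only, so they could only be lower. UQCR10, a subunit of respiratory complex III, had 97.8 FPKM in AS WT against 52.6 in AS STRAP KO, and SELENOM, a selenoprotein of the endoplasmic reticulum, 34.9 and 16.9 FPKM. The cytokine gene LIF had 36.7 and 27.1 FPKM, and the lncRNA gene LINC01521 2.88 and 1.83 FPKM. The lowest ratios were far outside the listed range. NEFH, the heavy neurofilament subunit, had 7.35 and 0.0208 FPKM, and PLA2G3, a secreted phospholipase, 1.54 and 0.0156 FPKM. GAL3ST1, a sulfotransferase of sulfatide synthesis, had 1.503 and 0.551 FPKM, and the pseudogene RPEP4 1.14 and 0.187 FPKM. In the other direction SF3A1, a subunit of the U2 snRNP, had 80.4 and 85.1 FPKM, and the row of TUG1 and overlapping transcripts 81.7 and 105 FPKM. ZNRF3, a ubiquitin ligase that removes WNT receptors, had 4.93 and 5.501 FPKM. Over the 7 unlisted rows with at least 1 FPKM in both libraries the median was -0.44, with ZNRF3, SF3A1 and TUG1 higher and the rest lower.

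**Figure D2:**
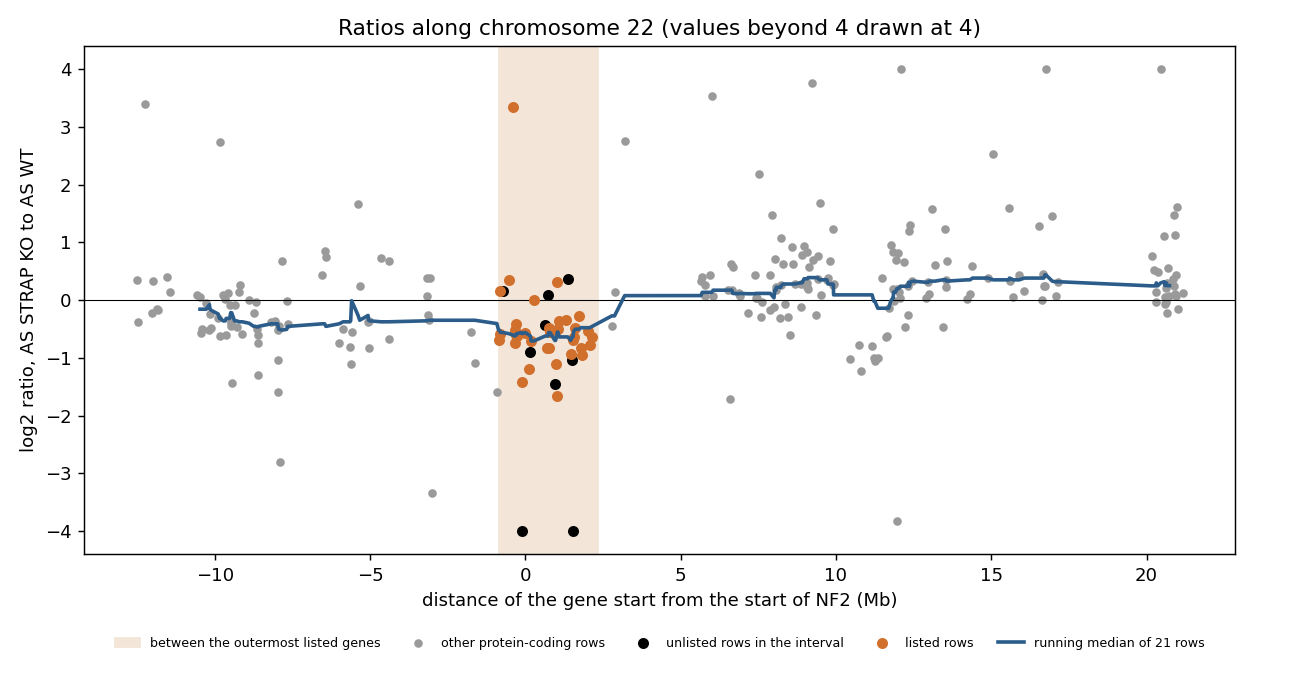
Log2 of AS STRAP KO over AS WT for each expressed protein-coding row of chromosome 22 against the distance of its start from the start of NF2 in Mb, with listed rows in orange, unlisted rows of the interval in black, other rows in grey and a running median of 21 rows in blue. Values beyond 4 in either direction are drawn at 4. The running median is below 0 on the centromere side and in the interval, and mostly above 0 on the telomere side.

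The lower ratios did not stop at the centromere-side edge of the list. CHEK2, the checkpoint kinase 2 gene, whose start lies head to head with HSCB, had 49.3 FPKM in AS WT against 16.3 in AS STRAP KO. The next expressed genes outward were TTC28 (4.01 and 1.88 FPKM), the phospholipid transfer protein gene PITPNB (60.8 and 41.3 FPKM), the lens crystallin gene CRYBB1 (1.30 and 0.129 FPKM) and the tyrosine sulfotransferase gene TPST2 (5.15 and 6.75 FPKM). Over all 76 expressed protein-coding rows on the centromere side the median log2 ratio was -0.35. Of them 52 were lower (68.4%), against 46.7% of the expressed protein-coding rows of other chromosomes. In blocks of 20 such rows counted outward from HSCB the medians were -0.37, -0.48 and -0.27, and the last 16 rows had -0.11.

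At the telomere-side edge the direction turned within a few genes. RTCB, the RNA ligase of tRNA splicing, had 97.7 FPKM in AS WT against 71.3 in AS STRAP KO, which is a log2 ratio of -0.46. FBXO7, a subunit of a ubiquitin ligase, had 72.0 and 79.0 FPKM, and TIMP3, an inhibitor of matrix metalloproteinases, 13.7 and 92.4 FPKM. HMGXB4 (11.2 and 14.04 FPKM) and TOM1 (7.91 and 10.4 FPKM) followed. Over all 147 expressed protein-coding rows on the telomere side the median log2 ratio was 0.27. Of them 113 were higher and 34 lower (23.1%), against 46.7% lower among the expressed protein-coding rows of other chromosomes. Of 7 consecutive blocks of 20 rows there, 6 had medians from 0.10 to 0.38, and the fourth block outward had -0.08. Over chromosome 22 as a whole the median was 0.07.

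Other chromosomes also had stretches with a shifted median. Of 188 bins of 5 Mb with at least 20 expressed protein-coding rows, the medians ran from -0.67 to 0.57, with a middle value of 0.07. Both bins that hold the listed rows had low medians, -0.56 (25 to 30 Mb, 15 of its 29 rows listed) and -0.55 (30 to 35 Mb, 20 of 29 listed), the 4th and 5th lowest. Lower ones were found at 40 to 45 Mb of chromosome 7 (-0.67), 5 to 10 Mb of chromosome 11 (-0.62) and 85 to 90 Mb of chromosome 1 (-0.60). Over whole chromosomes, leaving out Y and the mitochondrial genome, the medians ran from -0.31 for chromosome 13 to 0.26 for chromosome 10. The members were chosen for their ratios, so the place of their bins is a description. Only RNA was measured, and DNA of these cells was not analysed here.

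**Figure D3:**
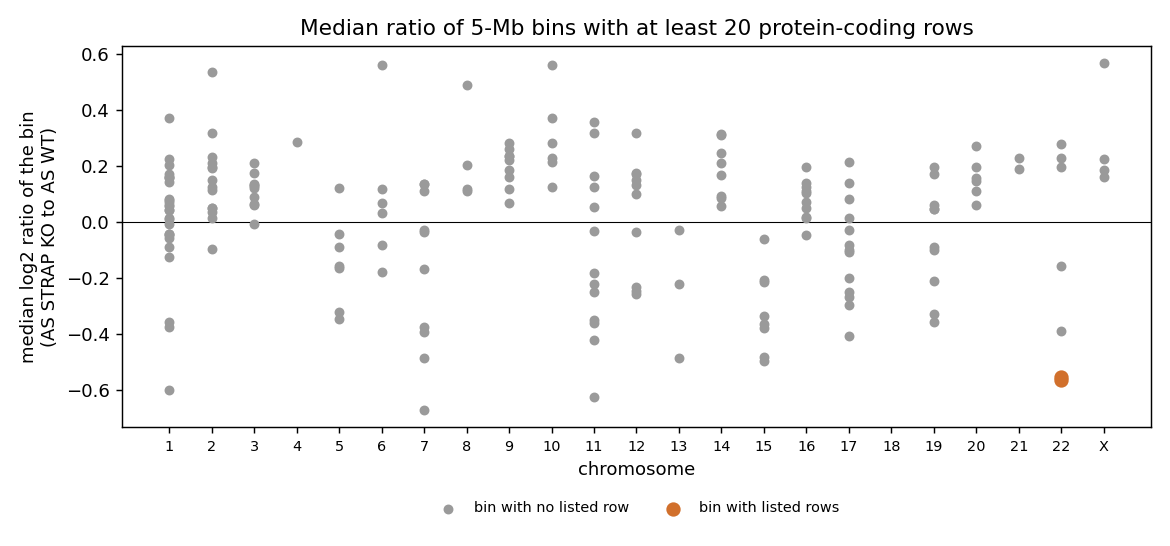
Median log2 of AS STRAP KO over AS WT in each 5-Mb bin with at least 20 expressed protein-coding rows, by chromosome, with the 2 bins that hold listed rows in orange and all others in grey. The bins with listed rows, at -0.56 and -0.55, lie among the lowest of 188, below the 5 other bins of chromosome 22, which run from -0.39 to 0.28.

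Genes that work with the listed ones but lie on other chromosomes did not have the same median. A list of relatives and complex partners held 65 genes, of which 61 were expressed, with a median log2 ratio of 0.00. Of the 61, 29 were lower (47.5%), which is close to the 49.9% of all expressed rows. The listed gene had a lower ratio than the median of its own partners in 27 of 30 families, where families of genes in a shared row use the same value. Because the members were chosen with their ratios known, this count follows largely from that choice and is no test. It also holds KREMEN1 and MTMR3, which were not lower in AS STRAP KO. The NF2 relatives ezrin (EZR, 55.0 and 74.6 FPKM), radixin (RDX, 16.0 and 26.5 FPKM) and moesin (MSN, 80.2 and 96.8 FPKM) were all higher in AS STRAP KO. TAF15, a relative of EWSR1, was listed at 0 in both libraries.

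Of the other 14-3-3 genes, YWHAB (119 and 144 FPKM) and YWHAZ (147 and 166 FPKM) were higher, and YWHAG (74.8 and 72.6 FPKM) and YWHAQ (174 and 150 FPKM) lower than in AS WT. YWHAE was listed at 0 in both. LIMK1, the kinase related to LIMK2, had 26.5 and 28.7 FPKM. The partners of DEPDC5 in GATOR1, NPRL2 (33.0 and 28.01 FPKM) and NPRL3 (24.6 and 31.2 FPKM), differed in direction. Upstream and beside XBP1 in the unfolded protein response, ERN1 had 2.89 and 3.51 FPKM and ATF6 11.8 and 16.7 FPKM. Among the AP-1 subunits, AP1G1 (15.5 and 22.2 FPKM) and AP1M1 (91.0 and 93.0 FPKM) were higher and AP1S1 lower, at 115 and 72.1 FPKM. The AP-2 subunit gene AP2B1 had 43.7 and 32.7 FPKM.

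In the THO complex, 4 of the 5 partners of THOC5 were lower, while THOC5 itself has no value apart from the row it shares with NIPSNAP1. THOC1 had 43.0 FPKM in AS WT against 20.7 in AS STRAP KO, THOC2 106 and 77.7 FPKM, THOC3 18.8 and 14.6 FPKM, and THOC7 102 and 72.4 FPKM. THOC6 had 53.1 and 55.4 FPKM. The other partners with the lowest ratios were RNPC3 of the minor spliceosome, in a row shared with AMY2B (-2.02), SEC14L1 (-1.83) and RASL10B (-1.04). Those with the highest were RHBDD2 (1.00), KREMEN2 (0.95) and MORC4 (0.94).

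**Figure D4:**
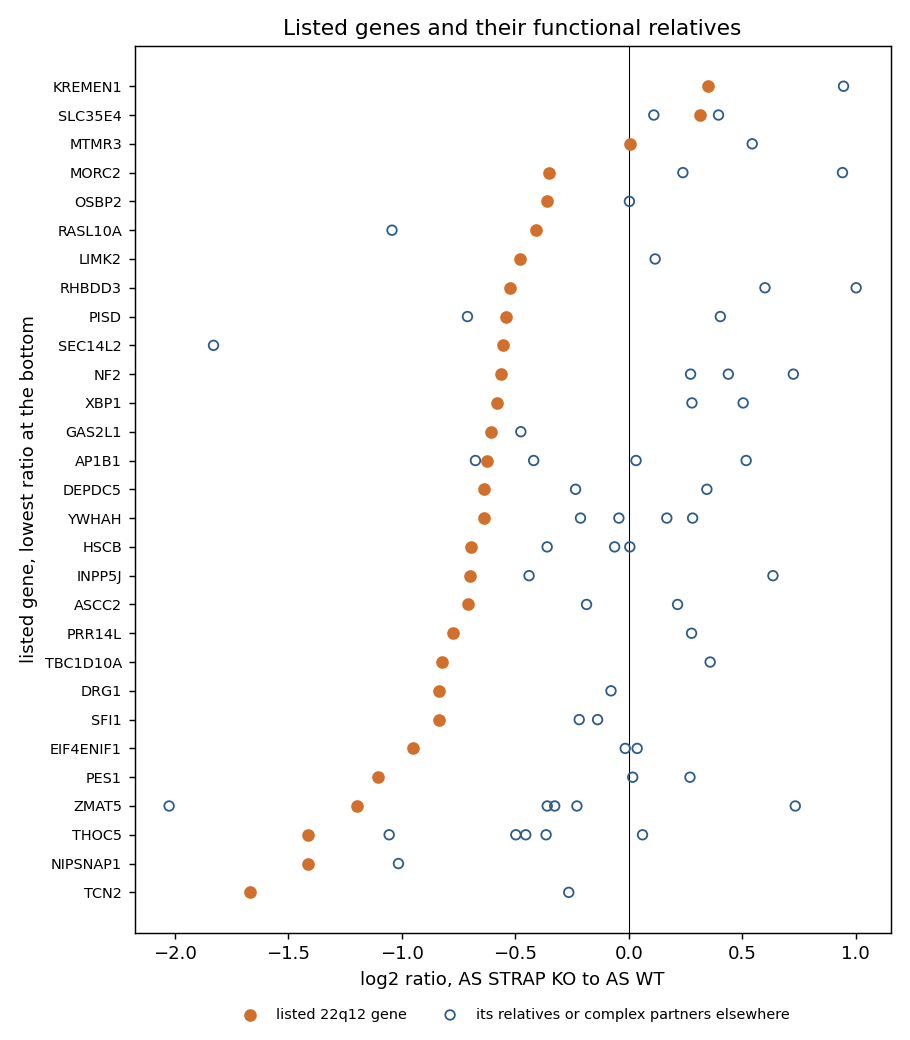
Log2 of AS STRAP KO over AS WT for 29 listed genes (filled orange) and for each expressed relative or complex partner on another chromosome (open blue), ordered by the ratio of the listed gene. The listed genes, chosen with their ratios known, cluster near -0.6 while their partners spread on both sides of 0. RASL10A, SEC14L2 and SLC35E4 are the listed genes that do not lie below the median of their partners.

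Neighbours that start head to head, within 1000 bases of each other on opposite strands by GENCODE 44, formed 6 pairs with a listed gene in separate rows. EWSR1 and RHBDD3 were both lower, with log2 ratios of -0.75 and -0.52, and share most of the promoter window printed above. ZMAT5 and UQCR10 were lower with -1.20 and -0.89, PES1 and TCN2 with -1.11 and -1.67, and HSCB and CHEK2 with -0.70 and -1.59. In the remaining 2 pairs the listed gene was lower and its neighbour was not, CCDC157 (-0.48) beside SF3A1 (0.08) and MORC2 (-0.35) beside TUG1 (0.36). The differences within the 6 pairs ran from 0.23 to 0.90 on the log2 scale.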

How the data were processed

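Poly A RNA of each line was sequenced as 1 strand-specific library of single-end 75 bp reads, and reads were assigned by strand. The authors aligned the reads to GRCh38 with STAR and GENCODE release 32 and made the deposited FPKM with Cufflinks 2.2.1. For STAR, release 2.7.6 is credited to the submitters' processing notes, and the methods give another. Whether replicates were pooled is unknown here. The table has 1 FPKM column per library and no other.

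From the deposited FPKM, log2(AS STRAP KO / AS WT) was taken with no pseudocount, over rows at 1 FPKM or more in at least 1 library. A symbol was looked up after splitting the gene column at commas, and a row shared by members was counted once. Positions and transcript lengths came from GENCODE 44, which placed 89.1% of the expressed rows. Reads were estimated with a mean fragment length of 200 bases. At the estimated depth, 94.8% (AS WT) and 93.8% (AS STRAP KO) of low values lay within 0.1 of a whole read. Members, role groups and lists were chosen with earlier results of these data known, and the role groups and head to head pairs after the values were seen. By the rule for named genes, the text names each expressed member, the partners of 8 chosen members with the 3 lowest and 3 highest others, the 5 lowest and 5 highest unlisted rows of the interval and the 5 nearest protein-coding rows on either side. UQCR10, the remaining unlisted row, was named after its values were seen. Some genes that this rule or the marker lists hold are not reported here. Values were computed with pandas 2.3.3, SciPy 1.17.1 and numpy 2.4.6 in Python 3.11.15, and plotted with matplotlib 3.10.9.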

Additional observations from a re-analysis of the deposited data

How the results depend on the processing

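With 1 library per genotype no library could be left out, and no test was run. No paired analysis was possible because each group has 1 library. Over all settings the median log2 ratio of the listed rows ran from -0.70 to -0.51, the number of rows at least 1.5-fold lower from 14 to 24, and the number at least 2-fold lower from 3 to 6. These settings added 0.1 or 1 FPKM, moved the filter, kept rows of 1 symbol, summed rows, counted each symbol or changed the scaling. The listed median minus that of all expressed rows ran from -0.65 to -0.57. The median of all expressed rows was 0.0176 when both libraries had to reach 1 FPKM, 0.0185 when 1 library had to reach 5 FPKM, -0.0240 with no filter, 0.11 rescaled to a common total and -0.0932 with upper quartiles over rows above 0 FPKM (a scaling chosen after seeing the data). The last 2 scalings moved the telomere-side median to 0.38 and 0.17. Upper-quartile scaling over rows above 0 FPKM turned MTMR3 to the lower side; no other expressed member turned under any setting. Values under 1 FPKM rest on few reads and the size of such ratios is uncertain.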
